A study of Cavia porcellus with 44 samples.

Results

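Nuclear receptors, liver-enriched factors and circadian factors were examined as 1 set of genes in the livers of female Hartley guinea pigs. The set was taken by symbol: nuclear receptor, PPAR, RXR, retinoic acid, thyroid hormone and oestrogen receptor symbols, the HNF, CEBP, forkhead, KLF, SOX, GATA and ONECUT families, and the clock genes with their output factors. Of the symbols with deposited counts, 79 matched, and 58 of them were also in the variance-stabilized table; these 58 are the members, among 7629 named genes tested. All 58 members passed the filter of at least 200 counts in total over the 44 animals. The other 21 matching symbols had totals of 0 to 165 counts and were not tested, and the members just inside the limit were FOXH1 with 230 counts and FOXD2 with 274. Symbols of the rule such as PPARA, HNF4A, NR1H4, NR3C1, the PER genes and CEBPA were not analysed here.

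Livers were collected at week 32 from 6 groups of females. LFH animals (n = 8) had low fat feed (3.8% fat, 0% cholesterol) with 2000 mg vitC per kg throughout and are labelled healthy. HFH animals (n = 8) had high fat feed (20% fat, 0.35% cholesterol, 15% sucrose) with the same vitC throughout. All other animals had high fat feed with 50 mg vitC per kg for the first 16 weeks and then, for 16 weeks, the same feed (HFL/HFL, n = 10), high fat feed with 2000 mg vitC per kg (HFL/HFH, n = 6), low fat feed with 50 mg per kg (HFL/LFL, n = 6) or low fat feed with 2000 mg per kg (HFL/LFH, n = 6). Every high fat group is labelled NASH and both switched low fat groups NAFLD. Low fat animals were pair-fed to high fat animals, all were semi-fasted overnight, and the day and hour of euthanasia were block-randomised within groups. The high fat feed differs from the low fat feed in fat, cholesterol and sucrose together. By the paper's diet composition it also differs in fibre, starch, energy and several plant ingredients. These differences and the pair-feeding of low fat animals cannot be told apart here. Each sample is the left lateral lobe of 1 animal. Libraries held 21133807 to 35427724 counts, so that 3 counts corresponded to 0.0641 to 0.174 CPM (counts per 1000000 library counts, with library sizes scaled by the trimmed mean of M-values, TMM).

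Nuclear receptors are transcription factors that a small lipophilic ligand can switch on or off. In the liver, receptors for oxysterols, fatty acids, bile acids and xenobiotics bind DNA as heterodimers with a retinoid X receptor and set the level of lipid, bile acid and drug-handling enzymes. The circadian clock is a feedback loop in which ARNTL and CLOCK activate their own repressors, and it drives daily rhythms in much of liver metabolism through output factors such as DBP.

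The first question was which members differed between high fat and low fat feed, with vitC equal within each comparison. Feed in the first 16 weeks was also equal in the switched pairs, but not between HFH and LFH. Compared with LFH, 12 members were higher and 17 lower in HFH by edgeR's quasi-likelihood test (adjusted p < 0.05), that is 20.7% and 29.3% of the members. Over all genes tested, 27.5% were higher and 21.6% lower, so the members were called about as often as other genes. Between HFL/HFH and HFL/LFH, 8 members were higher and 15 lower on high fat feed, beside 19.4% and 16.5% of all genes. Between HFL/HFL and HFL/LFL, 7 were higher and 17 lower, beside 19.6% and 18.1% of all genes. The median log2 fold change of the 58 members was 0.03, -0.10 and -0.18 in these comparisons, in that order, and that of all genes 0.06, 0.01 and 0.03. These comparisons use different animals, and no member was called in opposite directions in any 2 of them.

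**Figure D1:**
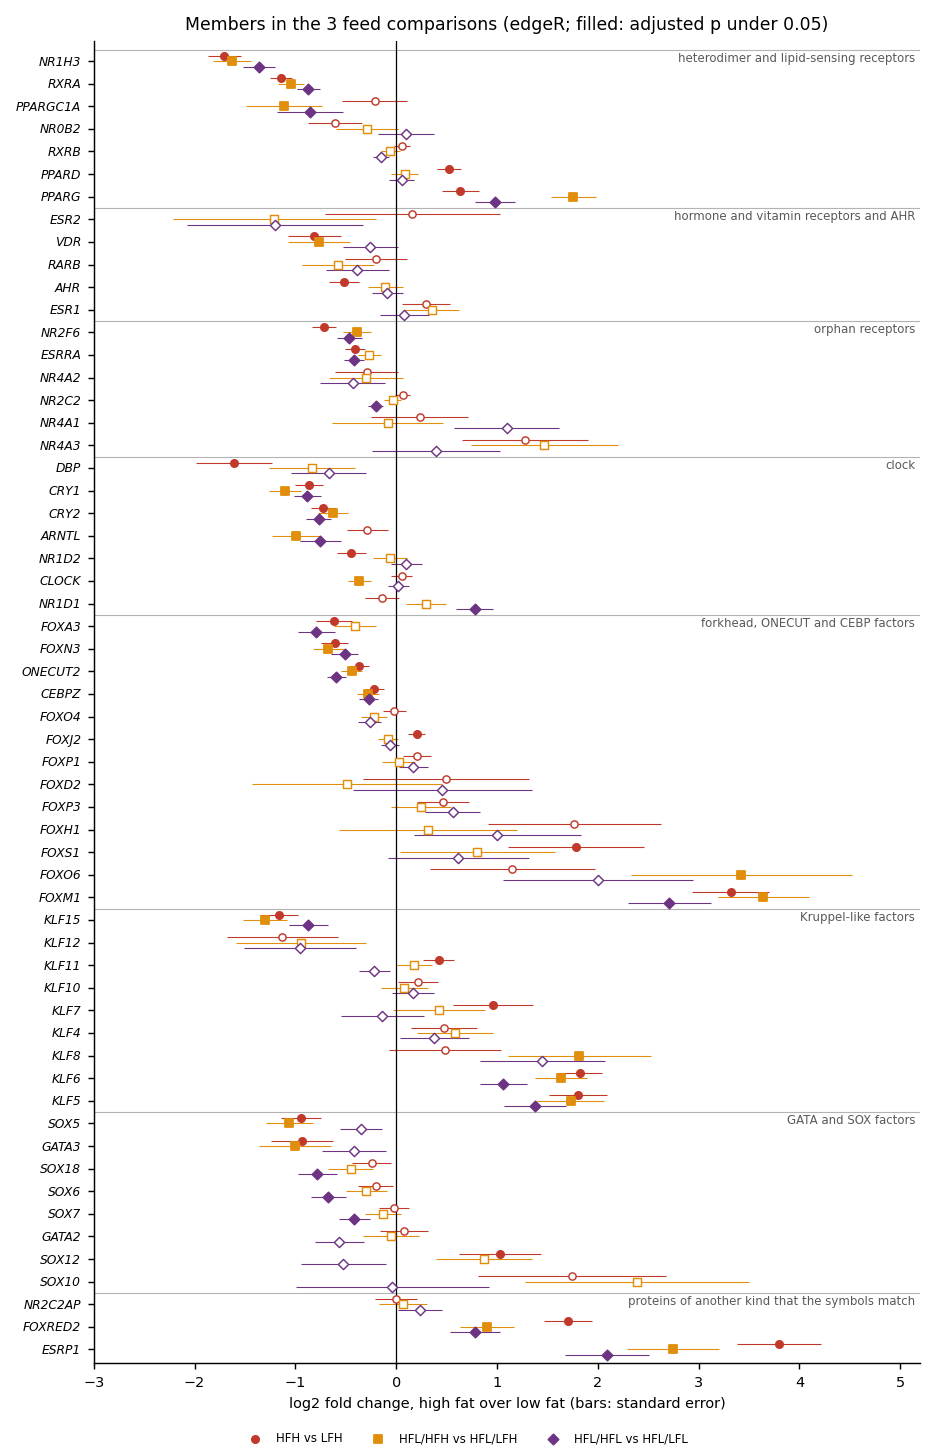
Log2 fold change of each of the 58 members, high fat over low fat feed, in the 3 feed comparisons (symbols), with its standard error (bars), ordered by role; filled symbols have an edgeR adjusted p under 0.05. NR1H3, RXRA, KLF15, CRY1 and CRY2 lie left of 0 in every comparison, and ESRP1, FOXM1, KLF5, KLF6 and PPARG lie right of it.

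Higher on high fat feed in every feed comparison were 6 members (ESRP1, FOXM1, FOXRED2, KLF5, KLF6 and PPARG), which is 10.3% of the members beside 13.4% of all genes. Lower in every one were 9 members (CEBPZ, CRY1, CRY2, FOXN3, KLF15, NR1H3, NR2F6, ONECUT2 and RXRA), which is 15.5% beside 10.4%. A further 24 members were called in 1 or 2 of these comparisons, and 19 members were called by edgeR in none of the 9 comparisons. CPM values did not overlap between HFH and LFH for 9 members (16.8% of all genes did not), between HFL/HFH and HFL/LFH for 10 (16.1% of all genes) and between HFL/HFL and HFL/LFL for 6 (9.86% of all genes). Over all 20 low fat and 24 high fat animals, 3 members did not overlap (FOXM1, NR1H3 and RXRA), beside 3.92% of all genes.

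Among the heterodimer partners and lipid sensors, NR1H3 and RXRA were lower on high fat feed and PPARG was higher. NR1H3 encodes LXRα, the oxysterol receptor that induces cholesterol efflux and fatty acid synthesis genes. NR1H3 ranged from 384 through a median of 432 to 510 CPM in LFH and from 68.2 through 152 to 171 CPM in HFH. The highest HFH animal was thus below every LFH animal, and the log2 fold change was -1.71 ± 0.16 (SE, adjusted p = 1.94e-11). In HFL/LFH NR1H3 was 331, 506 and 565 CPM (lowest, median, highest), and in HFL/LFL it was 358, 415 and 484 CPM. Both medians lay within the range of NR1H3 in LFH. On continued high fat feed it was 110, 142 and 209 CPM in HFL/HFH and 96.0, 179 and 213 CPM in HFL/HFL. The log2 differences were -1.63 ± 0.19 (adjusted p = 4.81e-09) at high vitC and -1.36 ± 0.16 (adjusted p = 1.01e-08) at low vitC.

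RXRA, the retinoid X receptor that pairs with LXR, PPAR and the xenobiotic receptors, was likewise lower in each high fat group. It ranged from 790 to 1158 CPM in LFH (median 926) and from 284 to 548 CPM in HFH (median 453). In HFL/LFH and HFL/LFL the medians were 991 and 901 CPM, and in HFL/HFH and HFL/HFL 464 and 484 CPM. Every high fat animal, the highest at 586 CPM, lay below every low fat animal, the lowest at 790 CPM. RXRA was lower by a log2 of -1.14 ± 0.11, -1.04 ± 0.13 and -0.87 ± 0.11 in the 3 feed comparisons (largest adjusted p = 7.74e-08). RXRB, a second retinoid X receptor, did not pass the test (log2 fold changes 0.06, -0.06 and -0.15), with medians of 78.3 to 93.8 CPM over the groups.

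PPARG, the receptor of adipogenesis and fat storage, ran the other way. It was 4.47, 5.79 and 9.99 CPM (lowest, median, highest) in LFH and 7.64, 8.83 and 14.4 CPM in HFH, with overlap between the groups (log2 0.64 ± 0.19, adjusted p = 0.00433). The switched low fat animals were lowest, at medians of 3.68 CPM in HFL/LFH and 4.26 CPM in HFL/LFL, against 12.5 CPM in HFL/HFH and 10.8 CPM in HFL/HFL. PPARG was therefore 1.76 ± 0.22 (adjusted p = 3.5e-08) and 0.98 ± 0.20 (adjusted p = 0.00014) higher on the log2 scale on continued high fat feed. PPARD, the broadly expressed fatty acid receptor, was higher in HFH than in LFH by 0.52 ± 0.12 (adjusted p = 0.000335), and its log2 differences were 0.08 and 0.05 in the other feed comparisons. PPARGC1A, the coactivator of gluconeogenesis and mitochondrial biogenesis, was lower on high fat feed in the switched pairs (-1.11 ± 0.38, adjusted p = 0.0181, and -0.86 ± 0.33, adjusted p = 0.0356). The first was lost without HFL/LFH animal 4 (adjusted p = 0.0769). The second was lost without any 1 of HFL/HFL animals 90, 55, 52 and 81 or HFL/LFL animals 49, 44 and 17 (adjusted p of 0.0513 to 0.263), and under upper-quartile scaling (adjusted p = 0.0515) or limma voom (0.0501). Without HFL/LFL animal 49 the log2 difference itself was -0.49, whereas in the other fits that lost the call it was -0.84 to -0.79. NR0B2, the small heterodimer partner that bile acids induce, passed no test (log2 -0.60, -0.29 and 0.10).

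**Figure D2:**
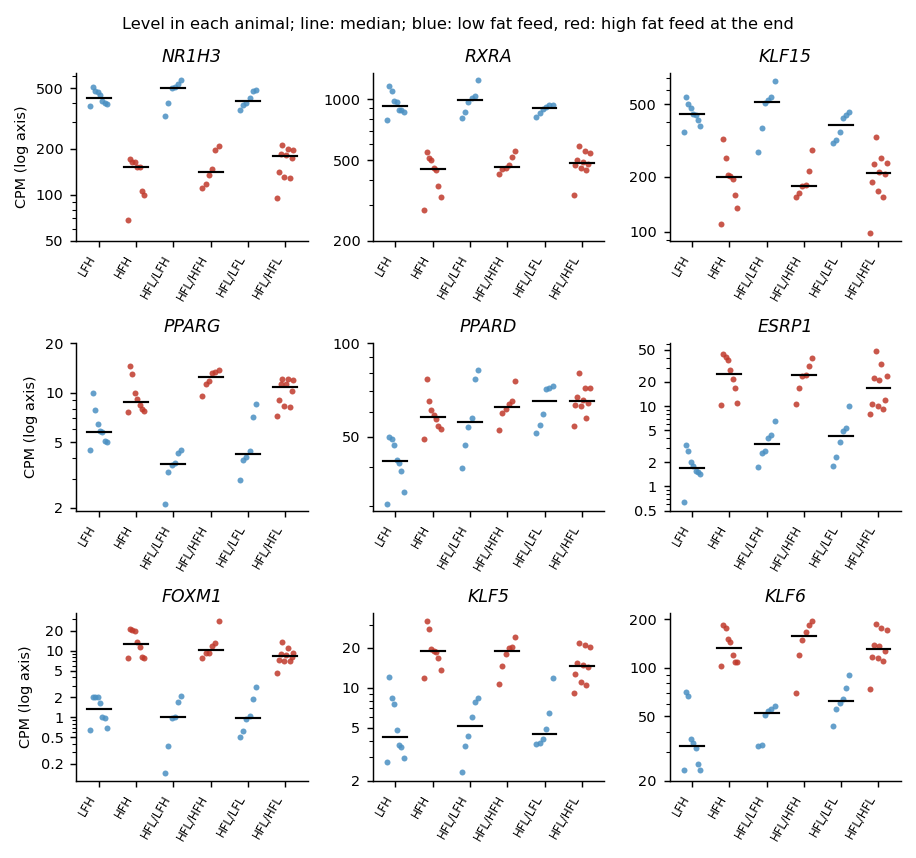
CPM on a log axis of 9 members in each of the 44 animals by group, with low fat feed at the end of the study in blue, high fat feed in red and the group median as a line. NR1H3, RXRA and FOXM1 separate all blue from all red animals; PPARD is lowest in LFH, with a median of 41.8 CPM against 55.6 to 65.1 CPM in the other groups.

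Target genes of LXR were counted next, with those of PPARα and of the bile acid receptor, although the genes of the latter receptors, PPARA and NR1H4, were not analysed here. Beside these counts, 27.5%, 19.4% and 19.6% of all genes were higher and 21.6%, 16.5% and 18.1% lower in the 3 feed comparisons. Of 4 LXR target genes tested, ABCG1, a sterol exporter, and LPL, the lipoprotein lipase, were higher on high fat feed while NR1H3 was lower. ABCG1 rose by a log2 of 1.95, 2.34 and 1.84 and LPL by 2.95, 3.30 and 2.23, with adjusted p of 5.82e-06 or less. LPCAT3 passed in HFH against LFH (0.27) and APOE in HFL/HFL against HFL/LFL (0.57). The median of the 4 was 1.11, 1.31 and 1.21, beside 0.06, 0.01 and 0.03 for all genes. Of 6 macrophage markers, 3, 3 and 2 were higher in the same comparisons and 1, 0 and 0 lower, with median log2 fold changes of 0.90, 1.21 and 0.77. Their summed CPM was 468 to 1584 in low fat and 559 to 1499 in high fat animals, and their part in the level of ABCG1 and LPL was not tested. Of 10 PPARα targets tested, 1 was higher and 5 lower in HFH, 1 higher and 5 lower in HFL/HFH, and 2 lower in HFL/HFL. CPT1A, which admits fatty acids to mitochondria, was lower by -1.18, -1.66 and -2.19, and PLIN2, a lipid droplet coat protein, was higher by 2.19 and 2.31 in the pairs at high vitC (0.61 at low vitC, adjusted p = 0.113). Of 3 bile acid receptor targets, CYP8B1, the sterol 12α-hydroxylase that bile acid signalling represses, was lower in each comparison (-1.19, -1.71 and -2.05), and FGF19 was listed at 0 in every LFH and HFL/LFH animal and reached 1.24 CPM in HFH and 1.79 CPM in HFL/HFH. In the low vitC pair FGF19 reached 1.46 CPM in HFL/HFL, with 7 of 10 animals at the floor of 3 counts or under, and 0.256 CPM in HFL/LFL (adjusted p = 0.261).

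Of 5 hormone and vitamin receptors, AHR included, none was higher and 2, 1 and 0 were lower on high fat feed, beside 21.6%, 16.5% and 18.1% of all genes lower. VDR, the vitamin D receptor, was 3.56, 6.47 and 9.95 CPM in LFH and 1.26, 3.71 and 5.95 CPM in HFH (log2 -0.81 ± 0.26, adjusted p = 0.00971). It was also lower in HFL/HFH than in HFL/LFH (-0.76 ± 0.31, adjusted p = 0.0469), a call lost under upper-quartile scaling (adjusted p = 0.0619), with no filter (0.0648), with only these groups fitted (0.0581) and in 12 of 44 fits without 1 animal, most of all without HFL/LFH animal 43 or HFL/HFH animal 19 (adjusted p = 0.133 and 0.126). AHR, the aryl hydrocarbon receptor, was 213 to 386 CPM in LFH and 126 to 229 CPM in HFH (log2 -0.52 ± 0.15, adjusted p = 0.00331), while the switched pairs differed by -0.11 and -0.09. ESR1 and ESR2, the oestrogen receptors, and RARB, a retinoic acid receptor, passed no test. Of 5 AHR targets tested, CYP1A1, CYP1A2 and UGT1A6 were lower on high fat feed in every feed comparison and CYP1B1 was higher. CYP1A2, a xenobiotic-metabolising cytochrome, fell from a median of 3118 CPM in LFH to 197 CPM in HFH (log2 -4.21, adjusted p = 1.26e-10).

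Targets of further receptors not analysed here were counted too. All 4 glucocorticoid receptor targets tested (DUSP1, FKBP5, TDO2 and TSC22D3) were lower on high fat feed in each feed comparison, with median log2 fold changes of -1.73, -1.60 and -1.13, beside 21.6%, 16.5% and 18.1% of all genes lower. The median of 5 hepatocyte markers tested was -0.85, -0.56 and -0.80 in the same comparisons, and their part in the level of these targets was not tested. Of 7 PXR and CAR targets, in which CYP3A4 and CYP3A5 carry the same counts, 3, 3 and 2 were lower and 1 was higher each time, the latter being ABCB1, a drug efflux pump. Of 3 thyroid hormone receptor targets, THRSP, a lipogenic protein, fell from a median of 343 CPM in LFH to 0.714 CPM in HFH, and ME1 and HR were higher in each comparison.

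Of the 6 orphan receptors, whose ligands are unknown or disputed, none was higher and 2, 1 and 3 were lower on high fat feed, beside the same shares of all genes. NR2F6, a repressive receptor of the COUP family, was 78.1, 105 and 132 CPM (lowest, median, highest) in LFH and 56.9, 63.2 and 74.8 CPM in HFH, without overlap (log2 -0.72 ± 0.12, adjusted p = 4.1e-06). It was lower in the switched pairs too (-0.39 ± 0.14, adjusted p = 0.027, and -0.47 ± 0.12, adjusted p = 0.00264), where the groups overlapped. The former call was lost without HFL/HFH animal 15 or 84 or HFL/LFH animal 33 (adjusted p = 0.0766, 0.0533 and 0.0978). ESRRA, a regulator of mitochondrial genes, was 182 to 347 CPM in LFH and 178 to 253 CPM in HFH (log2 -0.41 ± 0.10, adjusted p = 0.000536). It differed by -0.42 ± 0.10 (adjusted p = 0.00077) at low vitC and by -0.27 ± 0.11 (adjusted p = 0.0585) between HFL/HFH and HFL/LFH. NR2C2 was lower in HFL/HFL than in HFL/LFL, and the immediate-early receptors NR4A1, NR4A2 and NR4A3 passed no test.

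Of the 7 clock members, none was higher and 4 were lower in HFH than in LFH, none higher and 4 lower in HFL/HFH than in HFL/LFH, and 1 higher and 3 lower in HFL/HFL than in HFL/LFL, where 21.6%, 16.5% and 18.1% of all genes were lower. CRY1, a repressor of ARNTL and CLOCK, was 71.9, 116 and 145 CPM (lowest, median, highest) in LFH and 43.7, 65.0 and 78.2 CPM in HFH. Medians were 154 and 121 CPM in HFL/LFH and HFL/LFL and 65.1 and 68.4 CPM in HFL/HFH and HFL/HFL, and in both of these pairs the groups did not overlap. CRY1 was lower by -0.87 ± 0.13, -1.10 ± 0.16 and -0.88 ± 0.14 (adjusted p = 9e-07, 3.25e-07 and 1.9e-06). CRY2, its paralogue, had medians of 47.8 to 50.7 CPM in the low fat groups and 28.3 to 32.7 CPM in the high fat groups, with log2 differences of -0.72 ± 0.13, -0.63 ± 0.15 and -0.77 ± 0.13 (largest adjusted p = 0.000653).

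The activator ARNTL, also named BMAL1, did not pass the test between HFH and LFH (log2 -0.29 ± 0.20, adjusted p = 0.249). It was 13.8, 35.7 and 44.1 CPM in LFH and 22.1, 25.5 and 31.1 CPM in HFH. In the switched low fat animals it reached medians of 60.5 CPM in HFL/LFH and 57.1 CPM in HFL/LFL, against 28.6 and 28.3 CPM on continued high fat feed (-0.997 ± 0.24, adjusted p = 0.000807, and -0.75 ± 0.21, adjusted p = 0.00352). Against LFH, ARNTL differed by 0.80 ± 0.22 in HFL/LFH and 0.61 ± 0.22 in HFL/LFL, with adjusted p of 0.101 and 0.0774. CLOCK, its partner, was lower in HFL/HFH than in HFL/LFH by -0.37 ± 0.12 (adjusted p = 0.0127) and had medians of 50.6 to 64.1 CPM in all groups. Without HFL/HFH animal 19 the call was lost (adjusted p = 0.0586), as it was with only these groups fitted (0.0529).

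DBP, a PAR bZIP output factor, was highest in LFH, where it was 27.5, 62.3 and 134 CPM, against 15.9, 25.4 and 32.9 CPM in HFH (-1.61 ± 0.38, adjusted p = 0.000419). In the switched low fat groups it spread from 10.7 to 83.9 CPM in HFL/LFH and from 15.9 to 86.8 CPM in HFL/LFL, and the log2 differences of -0.83 ± 0.43 and -0.67 ± 0.37 did not pass. NR1D1 and NR1D2, the REV-ERB repressors, moved in different comparisons. NR1D1 was higher in HFL/HFL (48.6 to 75.8 CPM) than in HFL/LFL (22.6 to 43.4 CPM) without overlap (0.78 ± 0.18, adjusted p = 0.000765), whereas its log2 differences were -0.14 and 0.29 in the other feed comparisons. NR1D2 was lower in HFH than in LFH by -0.44 ± 0.15 (adjusted p = 0.0107). Whether these differences themselves differ between HFH against LFH and the switched pairs was not tested. Among further clock genes, RORA, an activator at the same DNA elements as the REV-ERBs, was lower in each feed comparison (log2 -1.06, -1.05 and -1.08), and CSNK1E, a clock kinase, was higher (1.46, 1.21 and 1.12). HLF was lower in HFH than in LFH (-0.79).

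**Figure D3:**
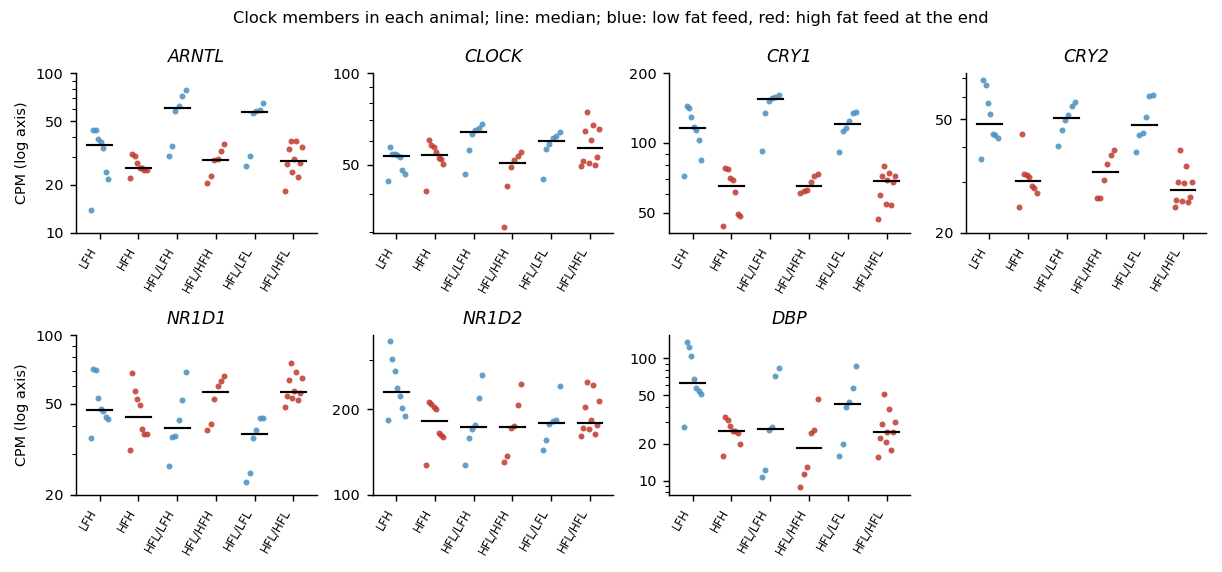
CPM on a log axis of the 7 clock members in each animal by group, with low fat feed at the end in blue, high fat feed in red and the group median as a line. CRY1 and CRY2 medians are lower in each red group, while ARNTL is highest in HFL/LFH and HFL/LFL, with medians of 60.5 and 57.1 CPM, and DBP is widely spread.

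Because the hour of sampling of each animal is not in the labels, clock members were also compared between animals of the same group. In the deposited variance-stabilized values, each animal's deviation from its group mean was taken, so that feed and vitC were removed. The deviation of DBP fell as that of ARNTL rose (Pearson's r = -0.64, Spearman's rho = -0.534, n = 44, permutation within groups, two-sided, adjusted p = 0.00126 and 0.00426 over 6 pairs; raw p = 0.00021 and 0.00142). NR1D2 (r = -0.534, rho = -0.466, adjusted permutation p = 0.00258 and 0.00716, raw 0.00093 and 0.00358) and NR1D1 (r = -0.44, rho = -0.425, adjusted permutation p = 0.0134 and 0.0103, raw 0.00895 and 0.00771) also ran against ARNTL. CRY1 ran with it (r = 0.507, rho = 0.526, adjusted permutation p = 0.00258 and 0.00174, raw 0.00129 and 0.00029).

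CLOCK did not pass by r (0.296, adjusted permutation p = 0.0528, raw 0.044), although it did by rho (0.392, adjusted 0.0103, raw 0.00861). CRY2 showed no relation in either measure (r = -0.099, adjusted permutation p = 0.57; rho = -0.116, adjusted p = 0.49; the raw p are the same). Without the 2 animals farthest from the median of ARNTL, LFH animal 79 and HFL/LFH animal 43, r was -0.567 for DBP, -0.453 for NR1D2, -0.362 for NR1D1, 0.457 for CRY1, 0.398 for CLOCK and -0.062 for CRY2. Within single groups, r of ARNTL and DBP was -0.654 in LFH, -0.232 in HFH, -0.617 in HFL/HFL, -0.84 in HFL/LFL and -0.835 in HFL/LFH, and 0.058 in HFL/HFH. The relation was thus negative in 5 of 6 groups of 6 to 10 animals. For CRY1 it was positive in all 6, from 0.103 in HFL/LFL to 0.676 in LFH. For NR1D1 it was negative in 5, from -0.745 in LFH to -0.214 in HFL/HFL, and 0.125 in HFH. For NR1D2 it was negative in 5, from -0.889 in HFL/LFH to -0.258 in HFH, and 0.046 in HFL/HFL.

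**Figure D4:**
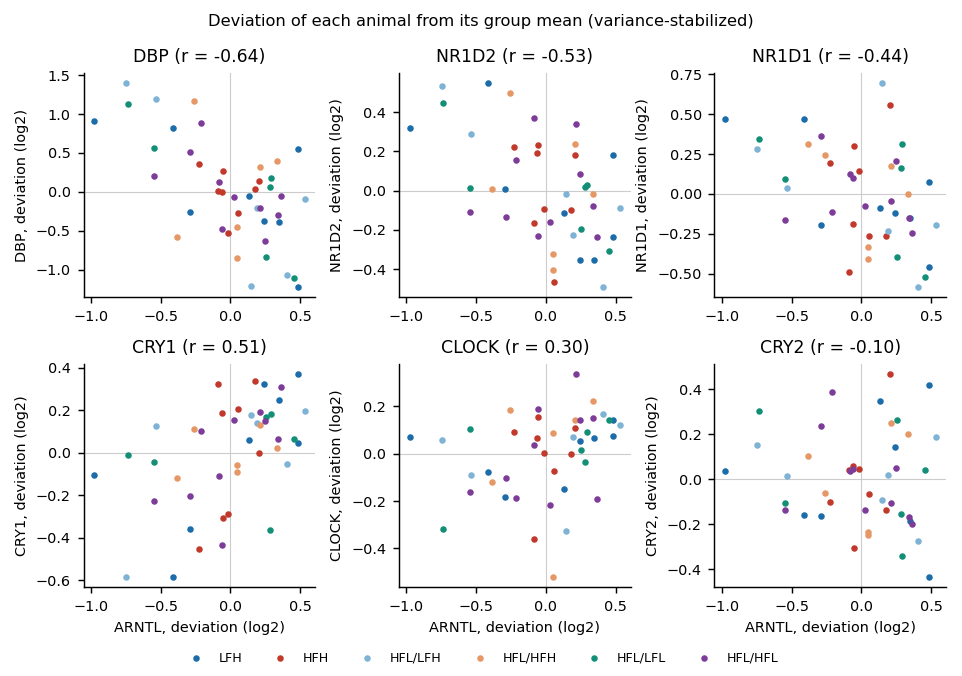
Deviation of each of the 44 animals from its group mean (log2, variance-stabilized) for ARNTL on the horizontal axis and 6 other clock members on the vertical axes, coloured by group. DBP, NR1D2 and NR1D1 slope down (r = -0.64, -0.534 and -0.44), CRY1 slopes up (r = 0.507) and CRY2 is flat (r = -0.099).

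Of the 13 forkhead, ONECUT and CEBP factors, 3, 2 and 1 were higher and 4, 3 and 4 lower on high fat feed, beside the 49.1%, 35.9% and 37.7% of all genes called in either direction. ONECUT2, a cut-homeobox factor related to HNF6, was 190 to 322 CPM in LFH and 181 to 244 CPM in HFH (log2 -0.37 ± 0.09, adjusted p = 0.00129). Its log2 differences were -0.44 ± 0.11 (adjusted p = 0.00115) and -0.59 ± 0.10 (adjusted p = 4.22e-06) in the switched pairs, and HFL/HFL (182 to 235 CPM) lay wholly below HFL/LFL (245 to 386 CPM). FOXA3, a pioneer factor of hepatocyte genes, was 101, 184 and 210 CPM in LFH and 69.9, 108 and 165 CPM in HFH (-0.62 ± 0.18, adjusted p = 0.0044). It was also lower in HFL/HFL than in HFL/LFL (-0.79 ± 0.18, adjusted p = 0.000638) and differed by -0.41 ± 0.21 (adjusted p = 0.124) in the third pair. FOXN3 and CEBPZ, a CCAAT-binding protein related to the C/EBP factors by name only, were lower in each feed comparison.

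KLF15, which promotes gluconeogenesis and amino acid catabolism, was also lower on high fat feed. It was 354, 440 and 546 CPM in LFH and 110, 199 and 323 CPM in HFH, without overlap (log2 -1.16 ± 0.19, adjusted p = 2.08e-06). The switched pairs differed by -1.30 ± 0.22 (adjusted p = 7.14e-06) and -0.87 ± 0.19 (adjusted p = 0.000326), each with a small overlap. In these libraries the summed CPM of 5 hepatocyte markers (ALB, SERPINA1, FGG, ASGR1 and ASGR2) was 74850 to 231300 in low fat animals and 24190 to 98990 in high fat animals, with 4, 2 and 3 of the 5 called lower and none higher. The sum is mostly ALB, whose median in LFH was 122000 CPM where that of the sum was 164400. Log2 differences in the switched pairs were -1.87 and -1.41 for ALB, -0.56 and -0.80 for SERPINA1 and -0.56 and -1.58 for FGG. They were -0.20 and -0.02 for ASGR1 and -0.46 and -0.12 for ASGR2. The part of these 5 markers in the lower level of NR1H3, RXRA, KLF15, FOXA3 and ONECUT2 was not tested, and in bulk liver fewer cells of a type and less RNA per cell cannot be told apart.

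Of the 9 Krüppel-like factors, 4, 3 and 2 were higher on high fat feed, and KLF15 was the 1 called lower each time, beside the same shares of all genes. KLF6, an injury-induced factor of hepatocytes and stellate cells, was 23.3, 32.8 and 70.7 CPM in LFH and 103, 132 and 184 CPM in HFH. It rose by a log2 of 1.82 ± 0.22 (adjusted p = 7.43e-09), 1.64 ± 0.26 (adjusted p = 2.27e-06) and 1.06 ± 0.23 (adjusted p = 0.000364). KLF5, a factor of epithelial progenitor cells, was 2.75, 4.27 and 12.1 CPM in LFH and 12, 18.8 and 32.1 CPM in HFH, and rose by 1.80 ± 0.29, 1.73 ± 0.34 and 1.38 ± 0.31 (largest adjusted p = 0.000447). KLF11 (log2 0.42 ± 0.15, adjusted p = 0.0192, 0.0531 without HFH animal 61 and 0.0776 with limma voom) and KLF7 were higher in HFH than in LFH and KLF8 in HFL/HFH than in HFL/LFH, and KLF4, KLF10 and KLF12 passed no test. Of 6 markers of stellate cells and fibroblasts tested, 3 were higher in each feed comparison and 1, 1 and 2 lower, with a summed CPM of 422 to 1167 in low fat and 831 to 2702 in high fat animals. The part of these cells and of the macrophages counted above in the level of KLF6 was not tested. Of 8 T cell markers 1, 1 and 0 were lower, of 4 B cell markers 1 was lower each time, and of 5 neutrophil markers 0, 3 and 1 were higher, none of these lists having calls the other way.

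FOXM1 and ESRP1 had the largest differences of the set with support in every feed comparison. FOXM1 drives genes of the G2 and M phases of the cell cycle. It was 0.648, 1.32 and 2.03 CPM in LFH and 7.67, 12.6 and 21.1 CPM in HFH. In HFL/LFH and HFL/LFL its medians were 0.994 and 0.991 CPM, and in HFL/HFH and HFL/HFL 10.4 and 8.25 CPM. The log2 differences were 3.32 ± 0.38 (adjusted p = 1.61e-09), 3.64 ± 0.45 (adjusted p = 2.23e-08) and 2.71 ± 0.41 (adjusted p = 1.53e-06). Both markers of dividing cells tested, CCNB1 and CDK1, were also called higher in each, although their sum was only 0 to 0.688 CPM in low fat animals and 0.343 to 4.11 CPM in high fat animals, and their part in the level of FOXM1 was not tested.

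ESRP1 matched the rule by its letters and is an epithelial splicing regulator rather than a transcription factor. It was 0.648, 1.67 and 3.32 CPM in LFH and 10.3, 24.9 and 44.8 CPM in HFH (log2 3.8 ± 0.42, adjusted p = 5.15e-10). In the switched pairs it was higher by 2.75 ± 0.46 (adjusted p = 5.67e-06) and 2.09 ± 0.42 (adjusted p = 0.000106). All 4 cholangiocyte markers tested (KRT7, KRT19, EPCAM and CLDN4) were higher in each feed comparison, their summed CPM being 115 to 405 in low fat and 666 to 1399 in high fat animals. Their part in the levels of ESRP1 and KLF5 was not tested. FOXRED2, an oxidoreductase of the endoplasmic reticulum that also matched by letters, was 1.78 to 3.53 CPM in LFH and 5.17 to 13.6 CPM in HFH (log2 1.71 ± 0.24, adjusted p = 1.09e-07) and was higher in both switched pairs (0.90 and 0.78). NR2C2AP, an NR2C2-associated protein, passed no test.

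Of the 8 GATA and SOX factors, 1, 0 and 0 were higher and 2, 2 and 3 lower on high fat feed, beside 49.1%, 35.9% and 37.7% of all genes called in either direction. SOX5, a factor without a transactivation domain, was 5.19 to 9.54 CPM in LFH and 3.19 to 4.84 CPM in HFH (log2 -0.94 ± 0.20, adjusted p = 0.000142), and was lower in HFL/HFH than in HFL/LFH by -1.06 ± 0.23 (adjusted p = 0.000361). GATA3 was lower in the same pairs. SOX6, SOX7 and SOX18 were lower in HFL/HFL than in HFL/LFL, where 4 of 5 endothelial markers tested were lower too. The summed CPM of those 5 markers was 467 to 693 in HFL/HFL and 731 to 913 in HFL/LFL, and their part in these SOX levels was not tested. SOX12 was higher in HFH than in LFH, and GATA2 and SOX10 passed no test. Of the remaining forkhead genes, FOXJ2 and FOXS1 were higher in HFH than in LFH and FOXO6 in HFL/HFH than in HFL/LFH, where 5 of 6 HFL/LFH animals had at most 3 counts of it. FOXD2, FOXH1, FOXO4, FOXP1 and FOXP3 passed no test.

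Of 7 coregulators and partners tested, 1, 0 and 0 were higher and 3, 4 and 3 lower on high fat feed, while 49.1%, 35.9% and 37.7% of all genes were called in either direction. MLX, MED1 and NCOA2 were lower and HDAC3 higher in HFH than in LFH. MLX, NCOA2 and NCOA1 were lower in both switched pairs, MED1 in that at high vitC, and the median log2 fold change of all 7 was -0.18, -0.33 and -0.14.

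The second question was what remained after the switch to low fat feed, compared with animals that never had high fat feed. HFL/LFL animals also had low vitC throughout, and HFL/LFH animals had it before the switch, whereas LFH animals always had high vitC. Past high fat feed and low vitC therefore cannot be told apart in these comparisons with LFH. Between HFL/LFH and LFH, no member passed the test, beside 0.354% of all genes, although 13 members had an unadjusted p under 0.05 and DESeq2 called 3 (ARNTL, PPARD and PPARG). Between HFL/LFL and LFH, 6 members passed, which is 10.3% of the members beside 7.73% of all genes. PPARD, with 51.5, 65.1 and 73.0 CPM in HFL/LFL against 30.4, 41.8 and 49.9 CPM in LFH, was the only member without overlap, beside 1.34% of all genes (log2 0.61 ± 0.13, adjusted p = 0.00228). In HFL/LFH it was 39.8, 55.6 and 81.8 CPM (0.52 ± 0.13, adjusted p = 0.0528).

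The other 5 differed in the direction they had in HFH against LFH. ESRP1 was 1.31 ± 0.42 (adjusted p = 0.0446), FOXRED2 0.81 ± 0.25 (adjusted p = 0.0393), KLF6 0.74 ± 0.23 (adjusted p = 0.0425) and KLF11 0.57 ± 0.16 (adjusted p = 0.0228) higher on the log2 scale, and SOX5 was 0.71 ± 0.22 lower (log2 fold change -0.71, adjusted p = 0.0382). These calls were fragile. The count fell to 1 without HFL/LFL animal 53, 49 or 44 or LFH animal 79, to 2 without LFH animal 92, 46 or 5, and to 1, PPARD, when only these groups were fitted. PPARD passed in each of these fits. Between HFL/LFL and LFH, 2 of 4 cholangiocyte, 2 of 6 macrophage, 2 of 4 B cell, 2 of 5 neutrophil, 1 of 6 stellate cell and fibroblast and 1 of 8 T cell markers were higher, and no marker of any list was lower. Their part in these calls was not tested. NR1H3, RXRA, KLF15, CRY1 and CRY2 differed from LFH by log2 values of -0.21 to 0.33 in the switched groups and passed no test there.

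**Figure D5:**
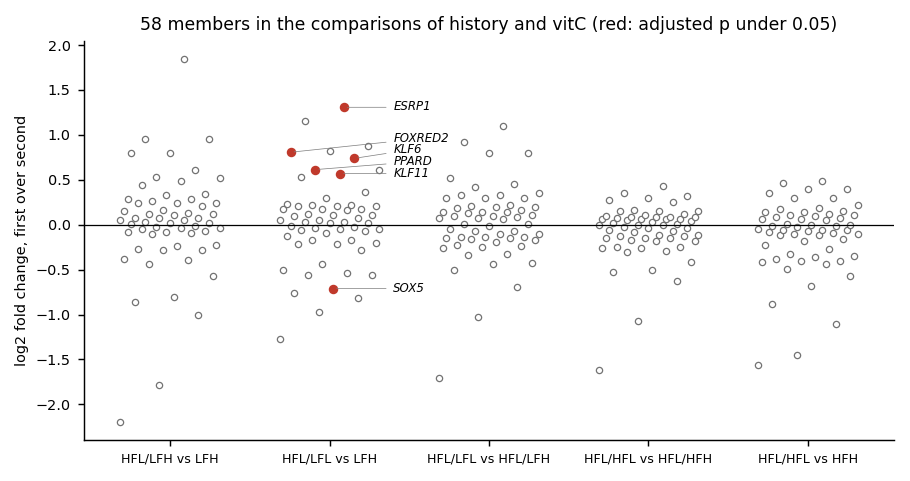
Log2 fold change of the 58 members, first group over second, in the comparisons of feeding history and of vitC (1 point per member, spread sideways for legibility); red points have an edgeR adjusted p under 0.05. Red points stand only in HFL/LFL against LFH, groups that differ in past high fat feed and in vitC. There PPARD, ESRP1, FOXRED2, KLF6 and KLF11 are above 0 and SOX5 is below it.

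The third question was whether vitC changed the members. No member passed the test between HFL/LFL and HFL/LFH (0.223% of all genes called), between HFL/HFL and HFL/HFH (0.0131% of all genes) or between HFL/HFL and HFH (0.288% of all genes). At an unadjusted p under 0.05 there were 2, 2 and 7 members, and DESeq2 called 0, 0 and 1 (SOX12). The smallest adjusted p of any member was 0.194, 0.999 and 0.077. The interaction of feed and vitC was called for no member (0.0% of all genes), with 4 members at an unadjusted p under 0.05, none by DESeq2, and a smallest adjusted p of 0.442. On continued high fat feed, low against high vitC differed by a log2 of 0.11 for NR1H3 (95% interval -0.21 to 0.43) 0.02 for RXRA (-0.21 to 0.25) and -0.63 for FOXM1 (-1.31 to 0.05). In the switched low fat groups it differed by -0.16 for NR1H3 (-0.52 to 0.20), -0.15 for RXRA (-0.41 to 0.10) and 0.30 for FOXM1 (-0.56 to 1.16). The intervals of FOXM1 were the widest of these, and its values rested on single animals. Without HFL/HFH animal 15, at 28.3 CPM against 7.8 to 13 in the others, the difference on high fat feed was -0.26 (-0.95 to 0.44), and on low fat feed it lay between -0.09 without HFL/LFL animal 68 and 0.64 without HFL/LFH animal 43. With 1 animal left out, NR1H3 ranged from 0.03 to 0.22 and RXRA from -0.01 to 0.07 on high fat feed, and from -0.25 to -0.11 and -0.20 to -0.08 on low fat feed.

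Members differed widely in how much animals of 1 group varied. On the variance-stabilized log2 scale, the within-group SD was highest for NR4A1 (0.781), DBP (0.699), PPARGC1A (0.602) and ESRP1 (0.584), with at most 3.99% of 7626 genes more variable. It was lowest for NR2C2 (0.124), FOXJ2 (0.142) and RXRB (0.142). RXRA (0.218) and CRY2 (0.227) were less variable than most genes, with 71.2% and 68.2% of genes above them, and NR1H3 (0.325) had 33.5% above it. Genes with low counts have a compressed scale in these values, so these ranks compare genes only loosely.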

How the data were processed

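Liver mRNA of 44 guinea pigs was sequenced as paired reads (oligo-dT selection, Illumina NovaSeq). According to the study's methods and the submitters' processing notes, the authors demultiplexed with bcl2fastq 2.19, trimmed with Trimmomatic 0.38.0, aligned with HISAT2 2.1.0 to Ensembl's guinea pig assembly, quantified with StringTie 2.1.1 and named genes by human orthologues. How StringTie output became whole counts, and whether strand was used, are not given in the sources used here, so reads of overlapping or antisense genes cannot be told apart. The deposited tables hold raw counts per gene (11967 rows) and the authors' variance-stabilized log2 values from DESeq2 (7747 genes, where 5.54 is a count of 0), which served for the correlations and the outlier check.

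Groups came from the labels' diets. Animals were separate, and p-values measure the spread between them. In the count table, 236 rows name no gene; they hold 2.62% of the counts (2.3% to 3.07% per animal) and were left out of library sizes and tests. Named symbols with a total of at least 200 counts were tested (7629), of which 762 share identical counts with another symbol, though no member does with a named one. edgeR 4.0.16 (R 4.3.3) fitted 6 group means jointly by quasi-likelihood after TMM scaling, with Benjamini-Hochberg adjustment over all genes and a threshold of 0.05. SE is the log2 fold change over the square root of F, and 95% intervals are 1.96 SE. The fit was tested on simulated data. CPM here are the counts per 1000000 counts of TMM-scaled library size. They are not per length, so levels are compared within a gene only. CPM values at or under 3 counts are at the floor, and depth covers counting error only.

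Members named with values were those called in all 3 feed comparisons in 1 direction with log2 fold changes of 1 or more in size, every clock member, the core liver members, and any member called in the other comparisons. NR2F6 was given values after they were seen and is not among the named members counted in the closing section. The members and lists were chosen with earlier results of these data known. Alternatives were RLE and upper-quartile scaling, no filter, edgeR's filterByExpr, 1 symbol for each set of equal counts, the compared groups alone, limma voom 3.58.1 with quality weights, DESeq2 1.42.0 and each animal left out. Keeping the unnamed rows was added after seeing the data, as was leaving out each animal for NR2F6 and for the vitC differences of NR1H3, RXRA and FOXM1. For the clock pairs they were log2(CPM + 1), each group left out and each animal left out, with 100000 resamples within groups. No paired analysis was possible because animal numbers are not shared between groups. No coordinates or sequences are given, since the gene table at hand is of another assembly than the files and was not used.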

Additional observations from a re-analysis of the deposited data

Results flagged for a closer look

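Single animals stood apart from the rest of their group in 7 of 174 pairs of a named member and a group (Dixon's criterion at the 95% level on variance-stabilized values, which chance alone meets in about 1 in 20 groups, or 8.7 pairs here). In HFL/LFH, animal 43 had a CRY1 level of 92.4 CPM against 135 to 161 CPM in the other animals, and animal 33 an ONECUT2 level of 241 CPM against 274 to 288. In HFH, animal 47 had a CLOCK level of 41.1 CPM against 50.3 to 60.3, and animal 9 a CRY2 level of 44.2 CPM against 24.5 to 32.2. In HFL/HFL, animal 93 had an ESRRA level of 311 CPM against 196 to 238, and animal 75 an RXRA level of 337 CPM against 447 to 586. In HFL/HFH, animal 15 had a FOXM1 level of 28.3 CPM against 7.8 to 13. No member's feed difference was called different between low and high vitC.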

How the results depend on the processing

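All 29, 23 and 24 member calls of the feed comparisons kept their sign under the 9 alternatives with every animal. Past the threshold, upper-quartile scaling kept 28, 21 and 21, no filter 27, 20 and 24, the compared groups alone 27, 18 and 24, limma voom 26, 23 and 22, and the other alternatives all of them. That scaling moved the median log2 fold change of all genes in HFH against LFH from 0.06 to 0.13. Over the 61 calls of named members, 20 of 549 values with every animal and 66 of 2684 with 1 animal left out lost the call, and none changed sign; 51 of the 61 calls held throughout. With 1 animal left out, the counts were 25 to 31 (HFH against LFH), 19 to 24 (HFL/HFH against HFL/LFH), 21 to 27 (HFL/HFL against HFL/LFL), 0 to 2 (HFL/LFH against LFH), 1 to 7 (HFL/LFL against LFH), 0 to 1 (HFL/HFL against HFH) and 0 in the remaining comparisons, and 4 to 5 clock pairs passed. In HFL/LFL against LFH the 6 calls became 2 with no filter (KLF11 and PPARD), 1 with the compared groups alone and 3 with limma voom (KLF6, PPARD and SOX5). Upper-quartile scaling kept 5 of them, all but ESRP1, and DESeq2 called 7, adding NR1D1 as lower in HFL/LFL. In HFL/LFH against LFH the 0 calls became 1 (PPARD) under upper-quartile scaling, with equal counts taken once and with limma voom, and 3 with DESeq2. In HFL/HFL against HFH they became 4 with limma voom (NR1D1, SOX6, SOX10 and SOX12) and 1 with DESeq2. The cause was not tested. Over 51 alternatives r lay between -0.726 and -0.57 for ARNTL with DBP, -0.627 and -0.434 with NR1D2, 0.432 and 0.581 with CRY1, and -0.513 and -0.349 with NR1D1, which missed the threshold in 1. Members with medians under about 1 CPM, such as SOX10, SOX12, ESR2, FOXD2, FOXH1, FOXO6 and KLF8, rest on few counts.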

Other observations

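Over all 7626 genes, those whose within-group deviations followed ARNTL most closely were JCAD (r = 0.709), SLC25A29 (0.686) and SIN3A (0.649) on the positive side and SLC17A9 (-0.67), DBP (-0.64) and MBNL2 (-0.617) on the negative side. These were picked as the extremes after the values were seen, over 44 animals that share 1 sampling per animal, and are given as a description. NR1D2 and NR1D1 stood 10th and 49th from the negative end.

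HFL/LFH animal 43 combined several unusual levels. It had the lowest ARNTL (30.3 CPM, next lowest 35.2) and the highest DBP (83.9 CPM) of its group, and an NR4A1 level of 117 CPM where the next highest animal had 15.8. NR4A1, an immediate-early receptor, was chosen for mention after its values were seen. Without this animal, 2 members rather than 0 were called between HFL/LFH and LFH, as was also the case without LFH animal 64.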
